A study of Mus musculus with 30 samples.

Results

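The DNA damage response and repair genes examined here are 32 of the 21900 protein-coding mouse genes of the RefSeq annotation used. They are a list of named genes with known roles, with no threshold on a measured value. They comprise 11 genes of the p53 axis, 4 checkpoint kinases, 10 genes of break sensing and end joining, 4 of homologous recombination and the Fanconi anaemia pathway, and 3 of base lesion and mismatch repair. ChIP-seq peaks were assigned to a gene when they overlapped its span widened by 1 kb, and otherwise to the nearest gene end within 50 kb. The lists give positions only, so the measurement is the peak length assigned to a gene, in kb, and not the height of the signal.

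The cells came from C57BL/6 mice that all carried floxed Crebbp alleles. Wild type is CBPfl/fl:Mx-Cre- and Crebbp-null is CBPfl/fl:Mx-Cre+, where Mx-Cre is a Cre recombinase driven by an interferon-inducible promoter and is therefore not limited to lymphoid cells. Progenitors were sorted bone marrow cells (Lin- IL7ra+) of either genotype, with 1 H3K27ac list each. Wild-type B cells were sorted B220+ splenocytes, and Crebbp-null LPD (lymphoproliferative disease) was unsorted bulk tissue, with 2 lists of each group for H3K27ac, H3K18ac and H3K56ac. Genotype, disease and sorting thus change together between B cells and LPD and cannot be told apart, nor can the number of cells that carry a mark and its level per cell. CBP itself was mapped in 1 list of wild-type B cells. Nothing in the labels ties the replicate lists to different animals, so p-values measure only the spread between these lists, which may be technical.

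When DNA is damaged, the kinases Atm and Atr signal through Chek2 and Chek1 to halt the cell cycle and to stabilise p53, the transcription factor encoded by Trp53, which raises transcription of arrest and feedback genes such as Cdkn1a and Mdm2. Lymphocytes depend on the same repair machinery in their normal development, since antigen receptor assembly and class switching proceed through DNA breaks that end joining must seal. CBP, the product of Crebbp, acetylates histones at promoters and enhancers and also acetylates p53.

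The 14 acetylation lists held 13125 to 39529 peaks that covered 6.32 to 29.5 Mb, and the CBP list held 1000. The second LPD list of H3K27ac covered 18.2 Mb and the first 26.2 Mb. The LPD lists of H3K18ac and H3K56ac were longer than the B cell lists of the same mark, which moved the median of all genes by 0.52 and 0.51 on the log2 scale, whereas the H3K27ac median was -0.11. After scaling each list to its total covered length these medians were -0.19, -0.16 and 0.14, so a member's difference is read beside the median of its mark. Peaks of the B cell marker genes were present in LPD, at 7 or 8 of 8 genes in each list, while at most 2 of 8 myeloid markers and 3 or 4 of 9 T and NK cell markers had one. Of 6 erythroid and megakaryocyte markers, 1 had a peak in every B cell list and 1 to 3 in the LPD lists. Their H3K18ac peaks summed to 0.409 to 0.43 kb in B cells and 1.246 to 1.433 kb in LPD. Peaks at 12 cell division genes summed to 3.07 to 3.77 kb of H3K56ac in B cells and 12.2 to 12.3 kb in LPD, to 4.59 to 4.69 and 9.02 to 15.5 kb of H3K18ac, and to 7.40 to 7.99 and 11.9 to 19.3 kb of H3K27ac. The part of the cell division genes in the results below was not tested. Chromosome Y held 1 to 6 peaks in every wild-type list and 0 in every Crebbp-null list. The labels do not give the sex of the mice, so a difference in sex cannot be told apart from genotype in any comparison here.

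The start-site sequences of 5 members that the results turn on are shown because peaks came, went or stayed at these starts. Each runs 5′ to 3′ from 250 bases before to 50 bases after a RefSeq start (GRCm38.p6, the build called mm10). Capitals mark the p53 half-site, the NF-Y box CCAAT, the GC box GGGCGG, the E2F core TTCCCGC and the CRE half-site TGACGT, on either strand. The letters of the GC box and the E2F core can overlap. The windows are chr11:69580109-69580408 on the plus strand for Trp53, chr17:29090729-29091028 on the plus strand for the upstream start of Cdkn1a, chr6:67037358-67037657 on the minus strand for Gadd45a, chr9:36726609-36726908 on the minus strand for Chek1, and chr1:72307171-72307470 on the plus strand for Xrcc5.
Trp53: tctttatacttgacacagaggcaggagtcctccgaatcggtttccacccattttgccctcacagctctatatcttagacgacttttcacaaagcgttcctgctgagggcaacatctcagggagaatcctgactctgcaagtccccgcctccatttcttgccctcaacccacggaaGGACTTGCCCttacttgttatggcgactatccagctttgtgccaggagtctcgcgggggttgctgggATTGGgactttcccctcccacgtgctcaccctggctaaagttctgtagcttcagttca
Cdkn1a: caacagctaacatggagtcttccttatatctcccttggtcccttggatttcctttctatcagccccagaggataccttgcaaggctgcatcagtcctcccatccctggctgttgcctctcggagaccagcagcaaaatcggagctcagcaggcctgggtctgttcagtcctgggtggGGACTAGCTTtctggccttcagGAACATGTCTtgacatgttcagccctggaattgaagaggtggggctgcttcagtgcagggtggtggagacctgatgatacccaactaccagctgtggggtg
Gadd45a: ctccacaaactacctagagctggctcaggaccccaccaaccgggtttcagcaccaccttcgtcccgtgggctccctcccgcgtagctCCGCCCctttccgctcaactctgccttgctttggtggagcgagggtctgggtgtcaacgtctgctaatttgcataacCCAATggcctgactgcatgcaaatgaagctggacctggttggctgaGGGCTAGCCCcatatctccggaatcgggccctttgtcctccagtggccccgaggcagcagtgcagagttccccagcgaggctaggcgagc
Chek1: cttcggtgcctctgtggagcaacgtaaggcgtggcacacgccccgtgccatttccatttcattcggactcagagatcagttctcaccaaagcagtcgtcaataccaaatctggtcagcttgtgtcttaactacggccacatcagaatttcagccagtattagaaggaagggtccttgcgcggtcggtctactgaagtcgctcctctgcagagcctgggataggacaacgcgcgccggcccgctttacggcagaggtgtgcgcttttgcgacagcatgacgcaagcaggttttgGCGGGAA
Xrcc5: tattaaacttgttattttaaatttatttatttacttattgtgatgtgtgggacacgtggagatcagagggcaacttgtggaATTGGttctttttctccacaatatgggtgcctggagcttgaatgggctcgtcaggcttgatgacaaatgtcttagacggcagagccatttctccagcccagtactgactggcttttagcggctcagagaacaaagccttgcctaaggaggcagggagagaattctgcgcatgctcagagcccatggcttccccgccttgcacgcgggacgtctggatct
A start window was held for 26 of the 32 members. The p53 half-site occurred in 7 of the 26 members (26.9%), namely Trp53, Cdkn1a, Mdm2, Ccng1, Sesn1, Gadd45a and Ppm1d, and in 8.54% of all 17492 genes with a window. The E2F core was found in 7 members (26.9%; 6.84% of all genes), the CRE half-site in 5 (19.2%; 9.60%), the NF-Y box in 16 (61.5%; 42.3%) and the GC box in 18 (69.2%; 49.2%). These are matches of letters and not shown to be bound.

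Across the 32 members, few H3K27ac lengths and more H3K18ac and H3K56ac lengths differed between Crebbp-null LPD and wild-type B cells. In H3K27ac, Cdkn1a was higher and Gadd45a and Parp1 were lower (limma, Benjamini-Hochberg adjusted p under 0.05 over 11990 genes), against 7.86% of all genes higher and 11.8% lower. In H3K18ac, 5 members were higher (26.0% of 12227 genes) and 1 was lower (3.26%). In H3K56ac, 9 members were higher (36.8% of 11818 genes) and 1 was lower (3.81%). In each mark and each direction the share of members called was below the share of all genes. The members' median differences were -0.02, 0.40 and 0.35 in H3K27ac, H3K18ac and H3K56ac, beside -0.11, 0.52 and 0.51 over all genes.

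After scaling to covered length the calls were 5 members higher and 3 lower in H3K27ac, 1 and 11 in H3K18ac, and 3 and 6 in H3K56ac. Over all genes the corresponding counts moved from 943 higher and 1413 lower to 2438 and 1935 in H3K27ac, from 3182 and 398 to 2457 and 3601 in H3K18ac, and from 4346 and 450 to 1917 and 2570 in H3K56ac. Cdkn1a remained above 0 and Gadd45a below 0 in every mark under this scaling, and Trp53 and Chek1 remained above 0 in H3K56ac.

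**Figure D1:**
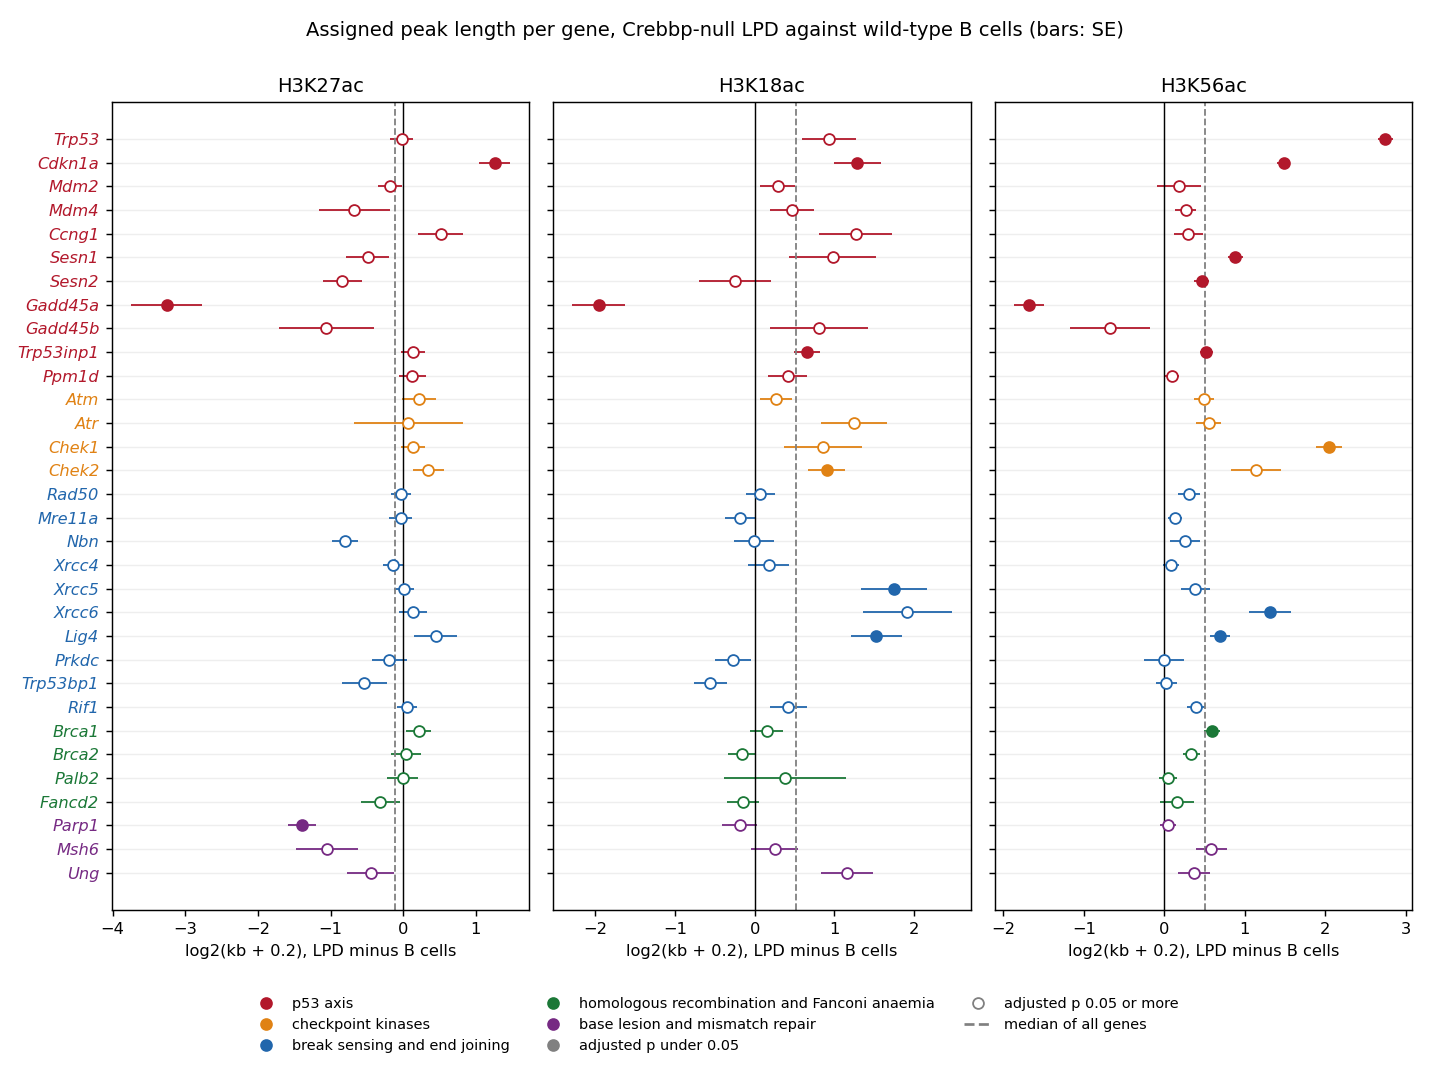
Difference in assigned peak length between Crebbp-null LPD and wild-type B cells for each of the 32 members, on the log2(kb + 0.2) scale, with 1 panel per mark. Points are limma estimates from 2 lists per group, bars their SE, filled points have an adjusted p under 0.05, colours give the role and the dashed line is the median of all genes; Gadd45a is on the far left and Cdkn1a on the right in all 3 panels.

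Gadd45a, a p53-induced growth arrest gene whose product also takes part in DNA demethylation, was called lower in LPD in all 3 marks, as no other member was before scaling. After scaling Parp1 was also called lower in all 3. At Gadd45a, H3K27ac peaks covered 2.60 and 3.15 kb in the B cell lists, and 0.312 and 0 kb in the LPD lists. H3K18ac covered 2.99 and 3.62 kb in B cells and 0.995 and 0.476 kb in LPD, and H3K56ac covered 1.53 and 1.08 kb and 0.276 and 0.253 kb. Both B cell lists were above both LPD lists in each mark. The log2 differences were -3.26 ± 0.49 (SE, limma adjusted p = 0.0215) for H3K27ac, -1.96 ± 0.33 (0.0192) for H3K18ac and -1.68 ± 0.19 (0.0096) for H3K56ac.

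The loss at Gadd45a lay mostly upstream of the gene. A pair of regions centred 18.5 and 19.4 kb before the start (chr6:67055506-67056290 and chr6:67056365-67057264) carried H3K27ac in both B cell lists and in neither LPD list, and H3K18ac was lost over the same stretch. A region farther upstream (chr6:67069497-67069980 in H3K27ac) was lost in H3K27ac and in H3K56ac and kept in H3K18ac. These regions were assigned by nearest gene end, and when only peaks at the gene span were counted none of the 3 calls remained (log2 differences -1.63, -0.96 and -0.18, adjusted p = 0.136, 0.104 and 0.506). Near the start itself, H3K27ac at chr6:67037691-67038011 and H3K18ac at chr6:67036989-67037414 were lost. The H3K27ac call was lost without the first or the second B cell list (adjusted p = 0.328 and 0.357), the H3K18ac call without any 1 of the 4 lists (0.058 to 0.195), and the H3K56ac call without the first or the second LPD list (0.126 and 0.142), and the direction stayed the same in each. The H3K27ac call was also lost in lists of equal length (-1.61, adjusted p = 0.491) and with a pseudocount of 0.05 kb (0.064).

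**Figure D2:**
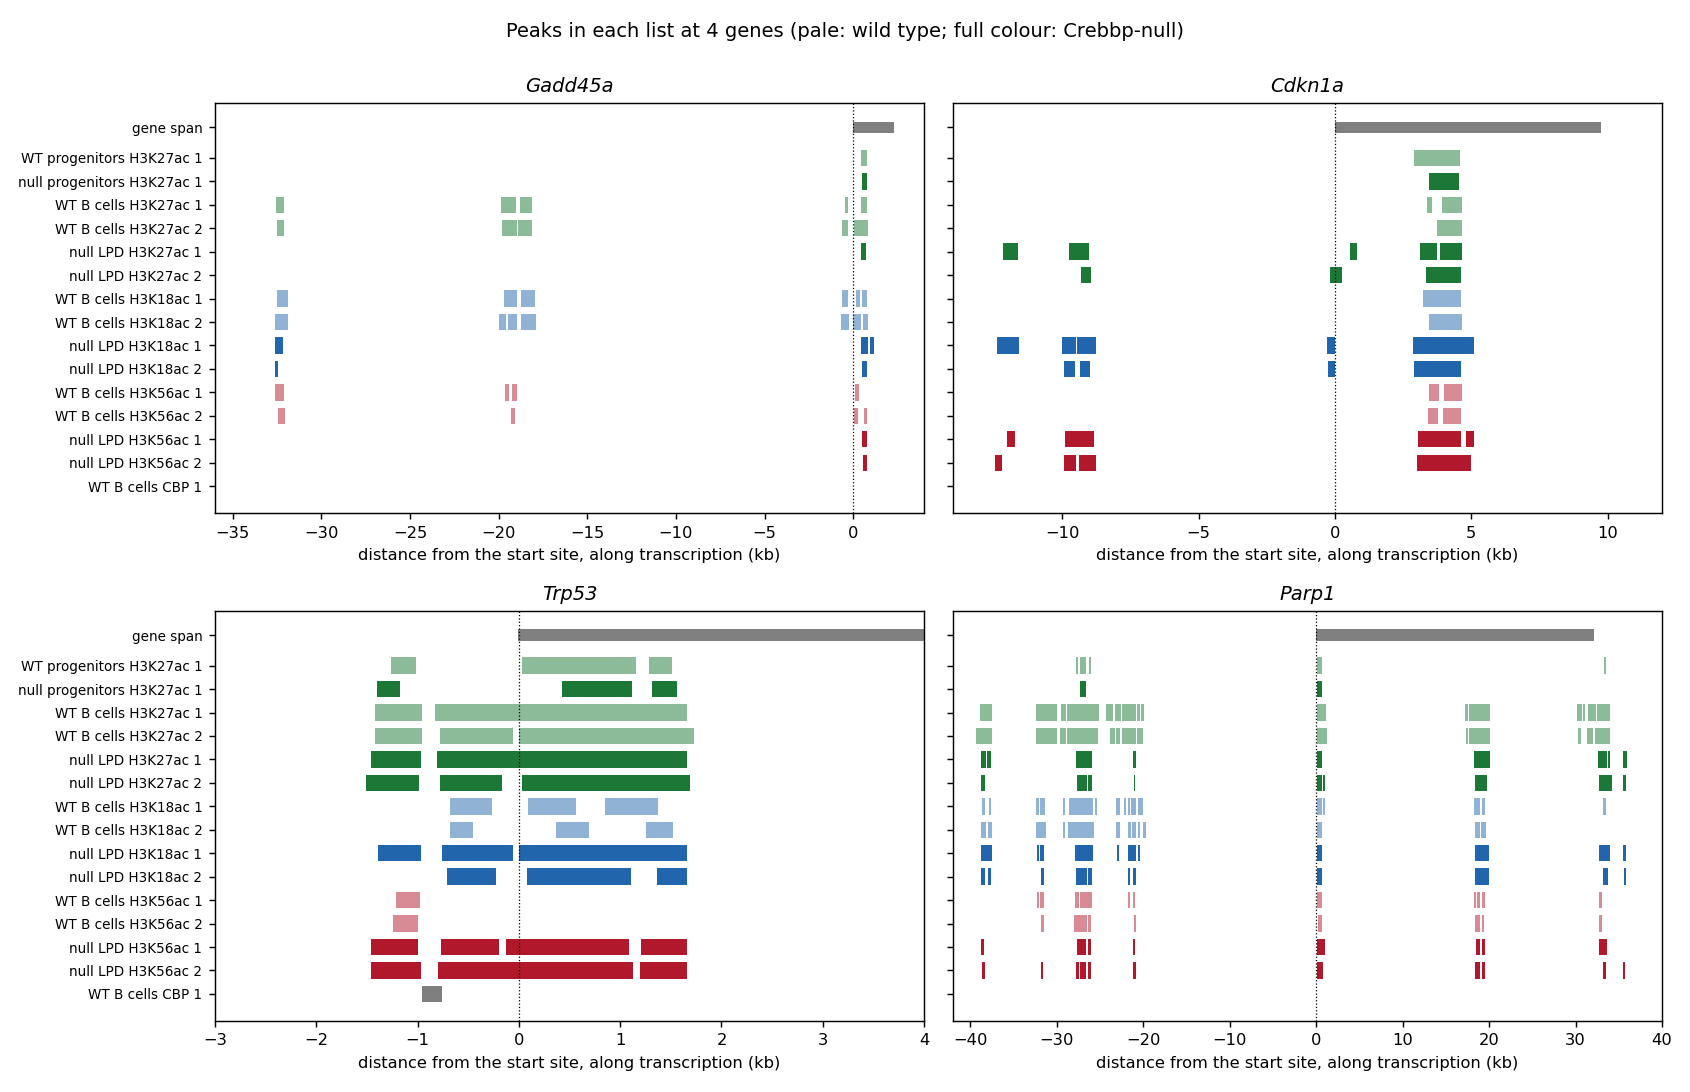
Peaks of each list at Gadd45a, Cdkn1a, Trp53 and Parp1, with the distance from the first RefSeq start in kb along the direction of transcription on the x axis and 1 row per list. Grey bars at the top are gene spans, pale bars wild-type lists and full-colour bars Crebbp-null lists; the peaks 18 to 20 kb upstream of Gadd45a appear in B cells but in no LPD list, and the peaks 9 to 10 kb upstream of Cdkn1a appear in all 6 LPD lists but in no B cell list.

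Cdkn1a, which encodes the cyclin-dependent kinase inhibitor p21 and is the best known arrest gene induced by p53, was higher in LPD in all 3 marks. H3K27ac peaks covered 0.948 and 0.898 kb in B cells and 2.97 and 2.08 kb in LPD. H3K18ac covered 1.43 and 1.23 kb against 4.55 and 2.72 kb, and H3K56ac 1.04 and 1.04 kb against 3.22 and 3.30 kb. The groups did not overlap in any mark. The log2 differences were 1.26 ± 0.22 (SE, limma adjusted p = 0.0276), 1.29 ± 0.29 (0.0378) and 1.48 ± 0.08 (0.0032), and after scaling 1.52, 0.49 and 0.75, with the H3K18ac call lost (0.0715).

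A region about 9.4 kb upstream of the Cdkn1a start was gained in all 3 marks, at chr17:29081215-29082052 in H3K27ac and chr17:29081030-29082202 in H3K56ac. H3K18ac was also gained over the upstream start printed above (chr17:29090704-29091002), where LPD peaks covered 274 and 242 bases of the 300-base window that holds the marked p53 half-sites and B cell peaks covered 0. The upstream region was assigned by nearest gene end, and at the gene span alone the differences were 0.74, 0.67 and 0.77 in H3K27ac, H3K18ac and H3K56ac, with the H3K18ac call lost (adjusted p = 0.0758). In lists of equal length the H3K27ac (0.257) and H3K18ac (0.182) calls were lost. The main peak, 1.10 to 1.27 kb past the second start, was kept in all lists of the 3 marks. The H3K56ac call held with any 1 list left out (adjusted p = 0.0215 to 0.0272). The H3K27ac call was lost without the first or second B cell list (0.359 and 0.375), and the H3K18ac call without these (0.253 and 0.278) or without the first LPD list (0.101).

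Trp53, the gene of p53 itself, carried H3K27ac of the same length in both groups and gained H3K56ac in LPD. H3K27ac peaks covered 2.96 and 2.90 kb in B cells and 2.98 and 2.80 kb in LPD, overlapping ranges. H3K56ac covered 0.241 and 0.257 kb in B cells and 2.73 and 2.89 kb in LPD, a log2 difference of 2.74 ± 0.10 (SE, limma adjusted p = 0.0025) that was 2.14 after scaling and stayed past the threshold with any 1 list left out, though not in lists of equal length (2.52, adjusted p = 0.0519). H3K18ac was 1.41 and 0.827 kb against 2.79 and 1.81 kb, without passing the threshold (adjusted p = 0.111). The gained H3K56ac lay over the start printed above (chr11:69579560-69581482) and just inside the gene (chr11:69581554-69582022). The first of these regions is shared with Wrap53, the neighbour on the opposite side, so its length counts for both genes. All of the B cell H3K56ac lay in another region shared with Wrap53 (chr11:69578895-69579394). The H3K27ac and H3K18ac regions of Trp53 were all shared with it as well. Only the gained H3K56ac region inside the gene was assigned to Trp53 alone.

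The difference between marks at Trp53 was itself tested. The LPD-minus-B cell difference in H3K56ac exceeded that in H3K27ac by 2.76 ± 0.33 (SE, limma interaction, adjusted p = 0.0022) and that in H3K18ac by 1.81 ± 0.33 (0.0212). After scaling these were 1.88 and 1.99, both past the threshold. Between H3K56ac and H3K18ac, Trp53 was the single member called, where 1.72% of 12781 genes were called above 0.

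**Figure D3:**
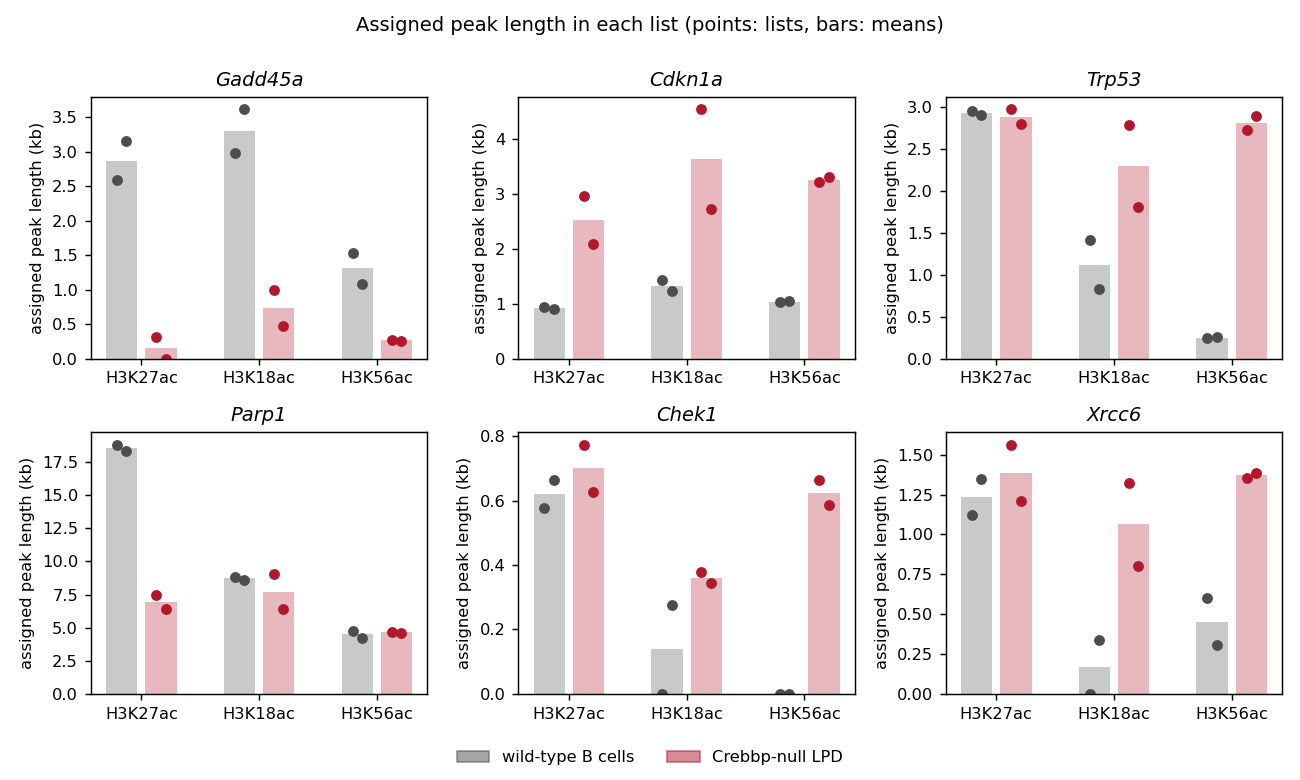
Assigned peak length in kb in each list for Gadd45a, Cdkn1a, Trp53, Parp1, Chek1 and Xrcc6, by mark. Points are the 2 lists of a group and bars their mean, grey for wild-type B cells and red for Crebbp-null LPD; Trp53 H3K56ac rises from 0.241 and 0.257 kb to 2.73 and 2.89 kb while its H3K27ac lies between 2.80 and 2.98 kb in all 4 lists.

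Among the other p53 targets and regulators, changes were smaller and depended on the scaling. Trp53inp1, a p53-induced gene that promotes cell death, had 2.95 and 3.13 kb of H3K18ac in B cells against 5.11 and 4.75 kb in LPD (log2 difference 0.66 ± 0.16, limma adjusted p = 0.0452), and 2.79 and 3.02 kb of H3K56ac against 4.22 and 4.27 kb (0.52 ± 0.08, 0.0188). Both differences turned negative after scaling (-0.17 and -0.26), and at the gene span alone the H3K18ac difference was 0.11 (adjusted p = 0.636), since the longer peaks lay in regions assigned by nearest gene end, such as chr4:11146539-11148755. Sesn1, a stress-induced regulator of mTORC1 signalling, had 1.76 and 1.90 kb of H3K56ac against 3.38 and 3.67 kb (0.88 ± 0.09, adjusted p = 0.0086, and 0.12 after scaling). Of this, 1.047 and 0.948 kb in B cells and 1.782 and 2.241 kb in LPD lay in a region shared with Cep57l1. Sesn2, a relative of Sesn1, had 0.966 and 0.938 kb of H3K56ac against 1.34 and 1.44 kb (0.46 ± 0.09, 0.0302), which was -0.24 after scaling. In H3K27ac Sesn2 went the other way, with 2.47 and 2.31 kb in B cells and 1.61 and 0.959 kb in LPD, which do not overlap (-0.84, adjusted p = 0.107), and was called lower after scaling (-0.58, 0.0261). Its H3K18ac difference was -0.25, and -1.04 after scaling, neither past the threshold.

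Regions came and went within these genes without a call on the total. Trp53inp1 had 4.27 and 4.38 kb of H3K27ac in B cells and 4.999 and 4.54 kb in LPD (limma adjusted p = 0.624), with a region gained at chr4:11128392-11128794, also gained in H3K18ac, and one lost at chr4:11154008-11154358. Sesn1 lost an internal H3K27ac region (chr10:41891120-41891870), its total being 6.37 and 6.72 kb against 5.92 and 3.57 kb, and gained 2 internal H3K56ac regions.

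Leaving out lists ended several of these calls. Trp53inp1 H3K18ac was lost without the first or second B cell list (adjusted p = 0.297 and 0.267) or the first LPD list (0.0743), and its H3K56ac without the first or second LPD list (0.114 and 0.126). Sesn1 H3K56ac was lost without either LPD list (0.0673 and 0.0808) and Sesn2 H3K56ac without any 1 of the lists (0.0783 to 0.118).

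The p53 inhibitors Mdm2 and Mdm4, the p53 target Ccng1, the stress gene Gadd45b and the phosphatase gene Ppm1d, which switches the response off, passed the threshold in no mark before scaling. Their log2 differences ran from -1.06 for Gadd45b to 0.52 for Ccng1 in H3K27ac, from 0.29 for Mdm2 to 1.27 for Ccng1 in H3K18ac, and from -0.67 for Gadd45b to 0.30 for Ccng1 in H3K56ac. Ccng1 H3K27ac, 0.822 and 0.626 kb against 1.51 and 0.814 kb, was called higher after scaling (0.75, limma adjusted p = 0.036) and in lists of equal length (2.72, 0.0143). Ppm1d H3K56ac was called lower after scaling (-0.63, turned from 0.09). Mdm4 lost an H3K27ac region (chr1:133029285-133030486) that covered 1.18 and 1.14 kb in B cells and gained another inside the gene (chr1:133019541-133020883), of 1.34 and 0.266 kb in LPD. Its total H3K27ac, 4.50 and 3.97 kb in B cells, was 4.21 and 1.55 kb in LPD, so that the groups overlapped. A narrow H3K56ac region was gained at Mdm4, whose H3K56ac total was 1.33 and 1.61 kb against 1.69 and 1.91 kb. Gadd45b lost a narrow H3K27ac region (chr10:80929490-80929725), with 0.580 and 0.604 kb in all in B cells and 0.522 and 0 kb in LPD.

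Of the checkpoint kinases, Chek1 gained H3K56ac over its start. Chek1, which carries the replication stress signal of Atr, was listed at 0 kb of H3K56ac in both B cell lists and had 0.664 and 0.586 kb in LPD, in a single region (chr9:36726279-36727021) over the window printed above. Since both B cell lists are at 0, the fitted log2 difference of 2.04 ± 0.16 (SE, limma adjusted p = 0.0056) depends on the added 0.2 kb; it was past the threshold with any 1 list left out and after scaling (1.79), and lost where only peaks of 500 bp or wider were counted (adjusted p = 0.399). H3K27ac at Chek1 was 0.578 and 0.664 kb in B cells and 0.774 and 0.628 kb in LPD, which overlap. The H3K56ac difference exceeded the H3K27ac difference by 1.91 ± 0.49 (limma interaction, adjusted p = 0.0286; 1.43 after scaling, 0.117).

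Chek2, the kinase downstream of Atm, had 0.624 and 0.568 kb of H3K18ac in B cells and 1.54 and 1.08 kb in LPD (log2 difference 0.91 ± 0.23, limma adjusted p = 0.0496), with a gained region 0.43 kb past the start. All of this H3K18ac lay in regions shared with Hscb. This call was close to the threshold and was lost after scaling (0.19, adjusted p = 0.318), without either B cell list (0.279 and 0.298) and without the first LPD list (0.101). Its H3K56ac, 0.590 and 0.255 kb against 1.10 and 1.14 kb, did not pass (0.0574). Atr gained a region just before its start in H3K18ac (chr9:95857090-95857534) and H3K56ac (chr9:95857093-95857512), shared with 1700065D16Rik. Its totals were 0.567 and 0.597 kb against 2.55 and 1.05 kb of H3K18ac (adjusted p = 0.0933) and 0.687 and 0.831 kb against 1.08 and 1.34 kb of H3K56ac (0.063). The 2.55 kb of the first LPD list includes 1.318 kb of a region beyond the far end of Atr, shared with Xrn1 (chr9:95954209-95955575). That region carried H3K18ac in every list, with 1.129 and 1.351 kb in B cells. It reached the widened span of Atr only in the first LPD list, so the H3K18ac totals are not alike. Atm differed by 0.22, 0.27 and 0.49 in H3K27ac, H3K18ac and H3K56ac without passing the threshold. After scaling it was called higher in H3K27ac (0.48, adjusted p = 0.0334) and, with the direction turned, lower in H3K18ac (-0.51, 0.0452), and its H3K56ac difference turned to -0.24. Chek2 was called higher in H3K27ac after scaling (0.60, 0.0158).

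In break sensing and end joining, the genes of the Ku heterodimer and of DNA ligase IV accounted for the calls. Xrcc5 encodes the larger Ku subunit, and its H3K18ac peak lay at the start printed above, covering 0 and 0.205 kb in B cells and 0.842 and 0.682 kb in LPD (log2 difference 1.75 ± 0.41, limma adjusted p = 0.0408). Xrcc6, the other Ku subunit, had 0.599 and 0.306 kb of H3K56ac in B cells and 1.36 and 1.39 kb in LPD (1.31 ± 0.26, 0.0294). All of this H3K56ac lay in regions shared with Desi1, so it counts for both genes. Xrcc6 H3K18ac was 0 and 0.336 kb against 1.32 and 0.804 kb and did not pass (0.0659), with a gained region (chr15:82016367-82016872) also shared with Desi1.

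Lig4, the ligase that seals the ends, had 0.228 and 0.275 kb of H3K18ac in B cells and 1.49 and 0.796 kb in LPD (log2 difference 1.52 ± 0.32, limma adjusted p = 0.0313). Its H3K56ac was 0.443 and 0.450 kb against 0.782 and 0.914 kb (0.69 ± 0.12, 0.0227). All of the B cell H3K56ac, and 0.782 and 0.659 kb in LPD, lay in a region shared with Abhd13 (chr8:9977773-9978574). The B cell H3K18ac also lay in a region shared with Abhd13. After scaling, the differences were 0.91 for Lig4 H3K18ac (0.025), 0.08 for Lig4 H3K56ac (0.667), 1.34 for Xrcc5 (0.0856) and 0.67 for Xrcc6 H3K56ac (0.103). Lig4 H3K27ac was called after scaling alone (0.68, 0.032). In lists trimmed to equal length by dropping the narrowest peaks, Lig4 H3K18ac turned to -1.17 and was called lower in LPD (limma adjusted p = 0.0090). Lig4 H3K56ac turned to -0.54 in these lists, not past the threshold (0.673). H3K27ac lengths of Xrcc5 (0.808 and 0.865 kb against 0.835 and 0.860 kb) and Xrcc6 overlapped between the groups.

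Without 1 list, Xrcc5 H3K18ac was lost in each of the 4 cases (adjusted p = 0.108 to 0.289). Xrcc6 H3K56ac was lost without the first or second LPD list (0.229 and 0.25), Lig4 H3K18ac without all but the second LPD list (0.073 to 0.258), and Lig4 H3K56ac in each of the 4 cases (0.0782 to 0.103).

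The break sensors Rad50, Mre11a and Nbn, the end-joining scaffold Xrcc4, the kinase gene Prkdc and the pathway-choice factors Trp53bp1 and Rif1 passed the threshold in no mark before scaling. Nbn had 2.19 and 2.78 kb of H3K27ac in B cells and 1.33 and 1.33 kb in LPD, with an adjusted p of 0.0505. It gained an H3K18ac region inside the gene (chr4:15988993-15989450) while its H3K18ac total was 1.55 and 1.55 kb against 1.91 and 1.23 kb. Trp53bp1 lost an H3K18ac region (chr2:121271642-121271948), with totals of 0.876 and 0.759 kb against 0.556 and 0.428 kb (adjusted p = 0.117). The log2 differences of Rad50, Mre11a, Xrcc4, Prkdc and Rif1 lay between -0.19 and 0.05 in H3K27ac, between -0.27 and 0.42 in H3K18ac and between -0.01 and 0.39 in H3K56ac. After scaling 5 genes of this group were called lower in H3K18ac, namely Trp53bp1 (-1.24, limma adjusted p = 0.0092), Mre11a (-0.94), Prkdc (-0.93), Nbn (-0.80) and Rad50 (-0.65, turned from 0.07). Mre11a (-0.58) and Xrcc4 (-0.61) were called lower in H3K56ac, both turned from above 0.

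Brca1, the recombination gene whose product prepares breaks for repair by a sister copy, gained the same internal region in all 3 marks. The region (chr11:101543678-101544304 in H3K27ac), centred 7.97 kb past the start, covered 0.627 and 0.596 kb of H3K27ac, 0.759 and 0.669 kb of H3K18ac and 0.640 and 0.679 kb of H3K56ac in the LPD lists, and 0 kb in all B cell lists. In all peaks assigned to Brca1, H3K56ac covered 1.82 and 1.61 kb in B cells and 2.71 and 2.64 kb in LPD (log2 difference 0.59 ± 0.10, limma adjusted p = 0.0203). The difference became -0.16 after scaling. In lists of equal length it was -0.73, and Brca1 H3K56ac was called lower in LPD there (limma adjusted p = 0.0094). The call of higher H3K56ac was lost without the second B cell list or either LPD list. Its H3K27ac was 2.20 and 2.36 kb against 2.91 and 2.47 kb and its H3K18ac 2.18 and 2.56 kb against 2.98 and 2.34 kb, neither past the threshold. All of the B cell H3K18ac lay in regions shared with Nbr1 (chr11:101550731-101552621 and chr11:101552768-101553703). Brca2, its partner Palb2 and the Fanconi gene Fancd2 had no gained or lost region in any mark and passed no threshold before scaling. After scaling Brca1 (-0.66, turned from 0.15), Brca2 (-0.90) and Fancd2 (-0.79) were called lower in H3K18ac and Palb2 (-0.62, turned from 0.04) in H3K56ac.

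Parp1, the sensor of single-strand breaks, had the longest H3K27ac of all members in B cells and was called lower in LPD. Its peaks covered 18.8 and 18.3 kb in B cells and 7.48 and 6.42 kb in LPD, a log2 difference of -1.40 ± 0.20 (SE, limma adjusted p = 0.0182). It was -1.11 after scaling (0.0049). H3K18ac, at 8.84 and 8.59 kb against 9.02 and 6.42 kb, and H3K56ac, at 4.78 and 4.20 kb against 4.69 and 4.58 kb, overlapped between the groups. After scaling these were called lower too, by -1.05 (adjusted p = 0.0040) and -0.74 (0.0111), so that the scaled difference was below 0 in all 3 marks.

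The H3K27ac loss at Parp1 took in 7 regions, 5 of them upstream, centred as far as 31.2 kb from the start. The widest (chr1:180536440-180538935) covered 2.40 and 2.50 kb in the B cell lists and 0 kb in LPD. Beyond the gene's end, H3K27ac and H3K18ac were gained at chr1:180604374-180604843 and chr1:180604406-180604750. H3K56ac was gained upstream (chr1:180530173-180530564), and H3K18ac was lost within one of the regions that lost H3K27ac. The upstream regions were assigned by nearest gene end, and at the gene span alone the difference was -0.85 (adjusted p = 0.0414). With assignment limited to 20 kb it was -0.70 and not past the threshold (0.0624). The call was lost without the first or second B cell list (0.311 and 0.307). The interaction with mark was called for H3K18ac against H3K27ac (1.21 ± 0.24, limma adjusted p = 0.0087) and for H3K56ac against H3K27ac (1.44 ± 0.24, 0.0055), but not after scaling (0.06 and 0.37).

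Msh6, a mismatch recognition gene, and Ung, which removes uracil left by the deaminase of antibody diversification, passed the threshold in no single mark. Msh6 gained H3K56ac just upstream (chr17:87974157-87974728), and its H3K56ac total was 1.11 and 0.743 kb against 1.45 and 1.49 kb. Its H3K27ac went the other way, with 3.83 and 4.09 kb in B cells and 2.81 and 1.14 kb in LPD, which do not overlap (-1.05, limma adjusted p = 0.181). Ung gained H3K18ac at its start (chr5:114130460-114130722, shared with Alkbh2) and inside the gene (chr5:114135049-114135603), with totals of 0.837 and 0.769 kb against 2.78 and 1.48 kb (adjusted p = 0.0614). 
All 32 members had a region in each mark. Counted by region, 5 members had a region gained in H3K27ac (20% of all genes with a region) and 6 had one lost (23.3%). For H3K18ac the counts were 10 members with a gain (37.9%) and 3 with a loss (8.8%). For H3K56ac they were 10 (33.6%) and 1 (7.8%). Brca1 and Cdkn1a gained a region in every mark, and Gadd45a lost one in every mark. Of these 6 counts out of 32 members, 5 came to less than the share of all genes and the H3K18ac losses to slightly more. In lists of equal length the balance turned, with 0 members gaining and 15 losing an H3K18ac region and 1 gaining and 10 losing an H3K56ac region. It turned over all genes too. Of 10472 genes with an H3K18ac region in these lists, 824 gained and 5307 lost one. For H3K56ac 642 gained and 4548 lost one, of 10394. This trimming drops the narrowest peaks of the longer lists.

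The tests of the difference between marks called 4 members for H3K18ac over H3K27ac (Xrcc5, Parp1, Trp53inp1 and Ung), where 23.8% of all genes were called above 0. They called 4 for H3K56ac over H3K27ac (Trp53, Parp1, Chek1 and Nbn), where 20.2% were. Medians over all genes were 0.61 and 0.60. After scaling, 9 members were called below 0 and none above in the first, and 1 above and 5 below in the second, where Trp53 was the one above. Of all 12781 genes, 2752 were then called below 0 and 1383 above in the first, and 1601 below and 976 above in the second.

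At the start windows, an H3K18ac peak overlapped the window of 12 and 15 of the 26 members in the B cell lists and of 22 and 20 in the LPD lists, against 30.7% and 31.8% of all genes in the B cell lists and 39.97% and 33.8% in the LPD lists. For H3K27ac the counts were 23 and 25 in B cells (41.1% and 40.6% of all genes) and 23 and 21 in LPD (41.9% and 36.95%). For H3K56ac they were 20 and 18 (33.0% and 30.7%), and 21 and 21 (37.1% and 38.8%). In H3K18ac and in H3K56ac both LPD lists stood above both B cell lists, among the members as among all genes, while in H3K27ac the groups overlapped.

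CBP peaks in wild-type B cells were assigned to 842 genes and to 2 members, Trp53 and Msh6. The Trp53 peak (chr11:69579397-69579603, 207 bp) lay upstream of the start, from -0.962 to -0.756 kb. It overlapped the edges of peaks in both H3K27ac B cell lists but lay mostly in the gap between them. That gap ran from -0.959 kb to -0.832 kb in the first list and to -0.775 kb in the second. No H3K18ac or H3K56ac peak of B cells overlapped it. The Msh6 peak (chr17:87974596-87974911, 316 bp) overlapped both H3K27ac and both H3K18ac lists of B cells. The CBP list is a single library, so the absence of a peak at the other 30 members has no replicate check.

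In bone marrow progenitors, which were compared without a test because there is 1 list of each genotype, H3K27ac was shorter at nearly every member in the Crebbp-null list. A peak was present at 30 members in wild type and 27 in null, and 26 of the 27 shared members were shorter in null, beside 87.8% of all shared genes. The members' median log2 ratio was -0.33 and that of all genes -0.35, and the null list as a whole covered less, by -0.58 on the log2 scale. Ppm1d was the exception, with 1.23 kb in wild type and 1.25 kb in null.

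Gadd45b (1.13 kb), Trp53bp1 (0.492 kb) and Palb2 (0.606 kb) had a peak in wild-type progenitors and were listed at 0 in null, as 12.6% of all genes with a progenitor peak were. No member had a peak in null progenitors only, beside 1.37% of all genes. Sesn2 and Xrcc5 had a peak in neither list. The largest ratios among shared members were at the checkpoint kinases Chek1, with 0.780 kb in wild type and 0.312 kb in null, and Chek2, with 0.894 and 0.409 kb. In lists trimmed to equal covered length, 24 members had a peak in wild type and 27 in null.

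**Figure D4:**
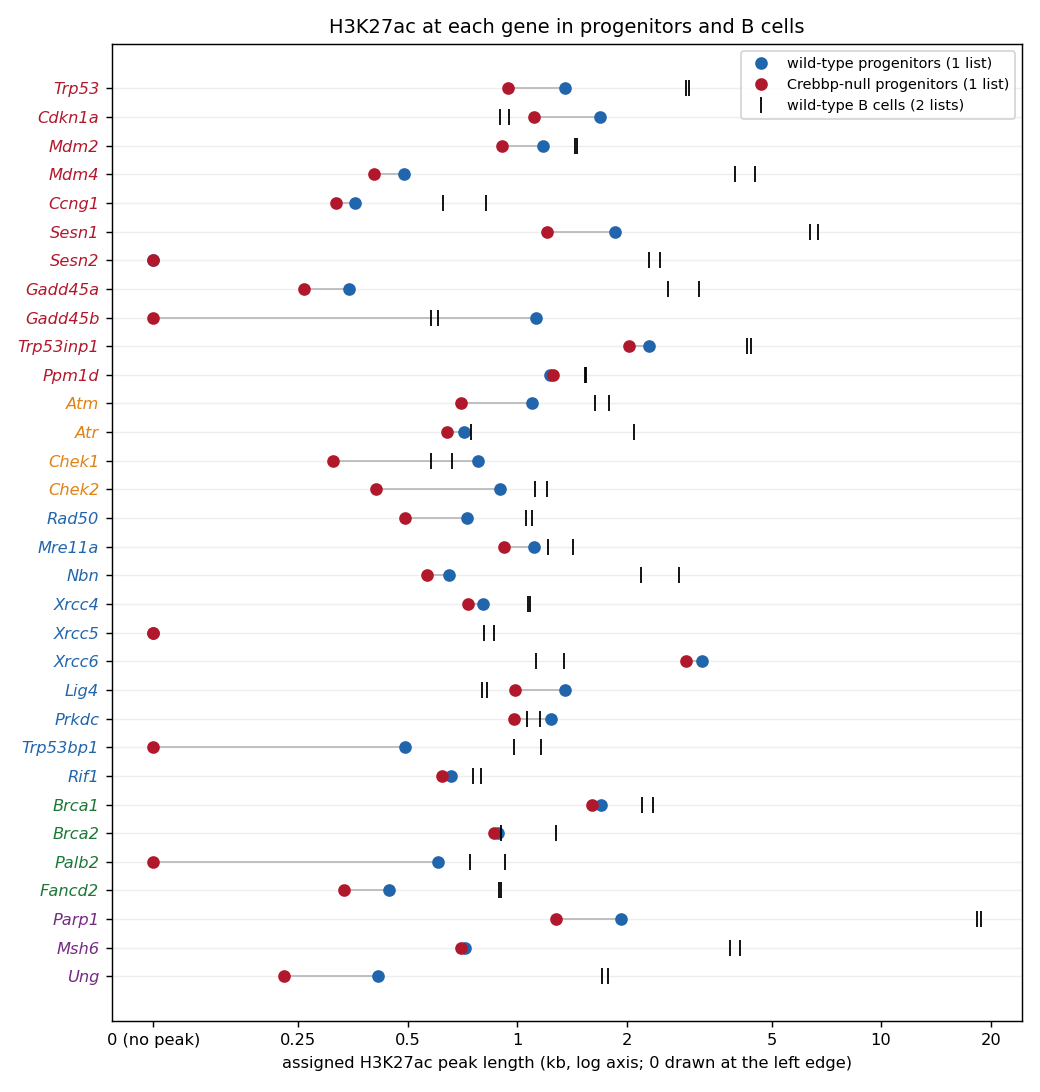
Assigned H3K27ac peak length in kb at each of the 32 members, on a log axis with members without a peak drawn at the left edge. Blue points are the wild-type and red points the Crebbp-null progenitor list, and black ticks the 2 wild-type B cell lists; Parp1 moves from 1.93 kb in wild-type progenitors to 18.3 and 18.8 kb in B cells, and Xrcc6 lies higher in progenitors than in B cells.

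Set beside B cells, wild-type progenitors had the longer H3K27ac, above both B cell lists, at 6 of the 32 members (18.8%; 7.77% of all genes with a peak). These were Cdkn1a, Gadd45b, Chek1, Xrcc6, Lig4 and Prkdc. Xrcc6 stood highest, with 3.23 kb in wild-type and 2.90 kb in null progenitors against 1.12 and 1.35 kb in B cells. Gadd45a had 0.344 and 0.259 kb in the progenitor lists, close to the LPD values and below the 2.60 and 3.15 kb of B cells. Parp1 likewise had 1.93 and 1.28 kb in progenitors, against 18.8 and 18.3 kb in B cells. The progenitor list covered 35.2% of the mean length of the B cell lists, so lower values are the rule there.

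Other genes of the pathway were counted from a list of 120, of which 119 matched a gene. In H3K27ac 8 were higher and 9 lower of 116 tested, in H3K18ac 22 and 1 of 113, and in H3K56ac 44 and 0 of 115 (limma, 3 lower at an unadjusted p under 0.05). Beside the shares of all genes given above, these counts were lower in each mark and direction except for the H3K56ac gains, which came to slightly more than 36.8%. After scaling to covered length the counts were 28 higher and 13 lower in H3K27ac, 17 and 37 in H3K18ac and 21 and 29 in H3K56ac, so the balance turned in all 3 marks. The medians of -0.12, 0.42 and 0.53 became 0.14, -0.30 and -0.14. Of the listed genes, 22 passed in at least 2 marks without scaling. The 6 with the largest differences were Mgmt, which repairs alkylated guanine, the Fanconi gene Fanca, the p53 target Zmat3, the cell cycle regulators Cdc25a and Wee1, and the excision repair gene Ercc6.

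At Mgmt, H3K18ac covered 0.325 and 0.337 kb in B cells and 14.1 and 9.58 kb in LPD (log2 difference 4.48 ± 0.25, limma adjusted p = 0.0026). Fanca was listed at 0 kb of H3K18ac and H3K56ac in all B cell lists, and had 3.31 and 2.24 kb of H3K18ac and 1.29 and 1.35 kb of H3K56ac in LPD. Zmat3 had 0.405 and 0.457 kb of H3K27ac in B cells and 2.412 and 2.096 kb in LPD (1.96 ± 0.15, 0.0052). Wee1 had 0.807 and 0.970 kb of H3K18ac against 11.8 and 9.10 kb. These differences kept their sign after scaling in all 3 marks for each of the 6 genes.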

How the data were processed

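The series holds 30 samples. The peak lists of 15 were used, and the RNA-seq and input samples, 15 in all, were not analysed here. The authors' tools included MACS2 2.0.10, Bowtie2 2.1.0, bedtools and Picard, with the build mm10, per the submitters' processing notes; settings are not given in the sources used here. The deposited values are peak positions without score or height, called per library, so read depth is unknown and the covered length stands in its place.

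Genes are RefSeq protein-coding genes of GRCm38.p6. Peak length per gene was tested as log2(kb + 0.2) with limma 3.58.1 in R 4.3.3 (eBayes with trend), which understates changes of low genes, over all genes with a peak in at least 1 of the 4 lists of a mark, adjusted by Benjamini-Hochberg at 0.05. The difference between marks is the interaction in 1 fit over the 12 B cell and LPD lists. This fit takes the lists of different marks as independent. The labels do not say whether same-numbered lists share cells, so its SE and p-values rest on that assumption. A region is the merged union of the 4 lists, gained when both LPD lists and no B cell list overlap it by at least 1 bp, lost when both B cell lists and no LPD list do, and kept when none of the 4 lacks it. Tables and plots used Python 3.11.15, NumPy 2.4.6, pandas 2.3.3 and Matplotlib 3.10.9.

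On simulated data with 200 changed genes per mark, planted changes of 4 log2 units were recovered at 65, 80 and 100% for H3K27ac, H3K18ac and H3K56ac, changes of 2 at 38.8, 32.5 and 62.5%, and changes of 1 at 0, 0 and 35%. In the same data 0, 0 and 5 unchanged genes were called. Changes were planted only at genes averaging more than 1 kb, and the simulated lists had no list-wide difference in length. The rates were not tested for shorter genes or for lists of unequal length. Promoter windows are RefSeq's, and motif letters were chosen with the sequences in view, the E2F core after the Chek1 sequence was seen. Members and lists were chosen with earlier results of these data known. All 32 members are accounted for; values in every list are given where a member passed the threshold, had a gained or lost region, or had a progenitor peak in 1 genotype only. Other pathway genes are named if past the threshold in 2 or more marks, at most 6, largest difference first. Alternatives covered the pseudocount, a filter on low values, scaling to covered length, lists trimmed to equal length, wider peaks, the assignment, leaving out each list and a replicate block.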

Additional observations from a re-analysis of the deposited data

Results flagged for a closer look

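The difference between LPD and B cells was not the same in all marks at 7 members, by a limma interaction term adjusted over 12781 genes. For H3K18ac against H3K27ac, the difference of log2 differences was 1.74 for Xrcc5, 1.21 for Parp1, 0.53 for Trp53inp1 and 1.60 for Ung. For H3K56ac against H3K27ac it was 2.76 for Trp53, 1.91 for Chek1, 1.05 for Nbn and 1.44 for Parp1. For H3K56ac against H3K18ac it was 1.81 for Trp53. The medians over all genes were 0.61, 0.60 and 0.01, so the first 2 comparisons sit on a shift shared by most genes. Scaled to covered length, only the 2 Trp53 values stayed past the threshold of these 9 (1.88 and 1.99).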

How the results depend on the processing

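Of 28 single-gene results, only Cdkn1a H3K56ac (13 alternatives) and Trp53 H3K56ac against H3K27ac (4 alternatives) kept their call under every alternative tried. Differences between marks were not refitted with a list left out or with lists of equal length. Values are numbers of members unless said otherwise. Scaled to covered length, 4373 genes were called in H3K27ac and 6058 in H3K18ac; members higher numbered 5, 1 and 3 and members lower 3, 11 and 6 in H3K27ac, H3K18ac and H3K56ac; 9 members differed between H3K18ac and H3K27ac; and differences turned negative for Trp53inp1 (-0.17 in H3K18ac, -0.26 in H3K56ac, -0.59 between H3K18ac and H3K27ac), Sesn2 (-0.24) and Brca1 (-0.16) in H3K56ac. In lists of equal length members higher numbered 3, 1 and 3 and members lower 10 in H3K18ac and 7 in H3K56ac. A lost region was counted there at 3, 15 and 10 members and a gained one at 0 in H3K18ac and 1 in H3K56ac. Lig4 H3K18ac (-1.17), Lig4 H3K56ac (-0.54) and Brca1 H3K56ac (-0.73) turned negative in these lists. Of these, Lig4 H3K18ac and Brca1 H3K56ac were called lower. With peaks of 500 bp or wider, 3076 genes were called in H3K56ac, members higher numbered 0 in H3K27ac (0 also at an unadjusted p under 0.05) and 1 in H3K18ac, members lower 0 in H3K56ac (0 unadjusted), gained regions 1 and 3 in H3K27ac and H3K18ac, lost regions 0 in H3K56ac, and 16 members had a null progenitor peak. At the gene span only, members lower numbered 1 in H3K27ac and 0 in H3K18ac (2 unadjusted) and H3K56ac (0 unadjusted), members higher 2 in H3K18ac, and gained H3K27ac regions 2. With the nearest gene within 20 kb, members lower were 1 in H3K27ac and members higher 3 in H3K18ac. With a pseudocount of 0.05 kb they were 1 and 3, and with 1 kb no member differed between H3K56ac and H3K18ac (0; Trp53 at 0.97). With a region counted only where 0.5 of it was covered, 3 members gained H3K27ac. Except where trimming by width removes narrow peaks by construction, the cause was not tested.

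The replicate block (replicate number as a term) gave 5 members lower in H3K27ac, 11 higher in H3K18ac and 5 higher in H3K56ac, with 3113, 4479 and 3234 genes called. Within a mark, the deviations of same-numbered B cell and LPD lists correlated at 0.0066, 0.0109 and -0.0140 over genes. Whether same-numbered lists of different marks are paired was not tested.

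Leaving out each list in turn, genes called ranged from 604 to 4484 in H3K27ac, from 0 to 3775 in H3K18ac and from 1656 to 3617 in H3K56ac. The H3K18ac count was 0 without either B cell list, where limma gave 3103 and 3274 genes at an unadjusted p under 0.05; a lone list is assumed to vary like the other group. Members higher ranged from 0 to 2, 0 to 7 and 3 to 10, and members lower from 0 to 9 in H3K27ac and from 0 to 1 in H3K56ac, and were 0 in each case in H3K18ac (0 to 4 at an unadjusted p under 0.05). Gained regions ranged from 5 to 12 members in H3K27ac and 10 to 20 in H3K18ac, most without the second LPD list, and lost regions from 3 to 5 in H3K18ac and 1 to 3 in H3K56ac. With 2 lists a group, changes of 1 log2 unit were rarely recoverable, and peak positions hold no depth.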
